A study of Mus musculus with 10 samples.

Results

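The Id genes encode the inhibitors of DNA binding, small helix-loop-helix proteins, and here the members are Id1, Id2 and Id3, taken by the gene symbol of the array platform. They are 3 of the 17711 named genes that the array carried, and 5 probes read them. A bead array of mouse transcripts was hybridised with RNA of macrophages from 6 tissues and of macrophages grown in culture. The tissue groups were peritoneal macrophages (2 arrays), alveolar macrophages of the lung (1 array), Kupffer cells of the liver (1 array), splenic red pulp macrophages (1 array), intestinal macrophages (2 arrays) and adipose tissue macrophages (2 arrays). The comparison group was bone marrow-derived macrophages (BMDM, 1 array), which had been grown with M-CSF, the growth factor that turns marrow progenitors into macrophages, for 7 days. All 10 arrays came from untreated male C57BL/6 mice aged 8 to 10 weeks, with no genetic change in any group. The labels do not say how many animals went into an array, whether paired arrays were separate animals, or how the tissue macrophages were isolated.

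Id proteins have the helix-loop-helix surface that lets such factors pair, but lack the basic stretch that grips DNA. They pair with E proteins (Tcf3, Tcf4 and Tcf12 in the mouse) and hold them away from E-box sites, so that the E protein and its tissue-specific partners do not activate their targets. Bone morphogenetic proteins (BMPs) switch on Id genes in many cell types, through type I and type II receptors and Smad proteins that enter the nucleus. In mouse myeloid cells Id2 is known for its role in dendritic cells and innate lymphoid cells, and Id3 for its role in the development of Kupffer cells.

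The 250 bases before the RefSeq start of Id3 and of Id2 on GRCm38.p6 are shown because BMP-activated Smads are known to bind near Id genes. Capitals mark GGCGCC, a GC-rich Smad element that reads the same on both strands, and GTCTG or its reverse complement CAGAC, the short Smad-binding element. Both sequences are given 5′ to 3′ on the strand of the gene. No promoter of Id1 is shown.
Id3, chr4:136143572-136143821, plus strand: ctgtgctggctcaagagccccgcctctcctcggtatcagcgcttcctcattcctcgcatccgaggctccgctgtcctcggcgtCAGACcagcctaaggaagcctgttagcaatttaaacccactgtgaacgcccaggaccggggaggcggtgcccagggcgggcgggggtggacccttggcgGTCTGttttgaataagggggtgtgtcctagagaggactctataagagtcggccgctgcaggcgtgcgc
Id2, chr12:25096093-25096342, minus strand: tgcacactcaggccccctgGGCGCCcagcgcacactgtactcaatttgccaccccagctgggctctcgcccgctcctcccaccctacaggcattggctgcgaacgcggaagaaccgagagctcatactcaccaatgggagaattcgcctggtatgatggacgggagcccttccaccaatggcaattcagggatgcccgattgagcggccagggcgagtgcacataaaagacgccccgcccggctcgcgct
The Id3 stretch held 2 matches of GTCTG, on opposite strands, which began 167 and 68 bases before the start, and no GGCGCC. The Id2 stretch held 1 GGCGCC, beginning 231 bases before the start, and no GTCTG. The E-box pattern CANNTG, which E proteins bind, occurred at 1 place in the Id2 stretch, 196 bases before the start, and at none in that of Id3. Among 32851 mouse promoters of the same length, 42.2% held GTCTG, 9.59% held GGCGCC and 66.2% held CANNTG, on either strand. Guanine and cytosine made up 62.8% of both stretches, against a median of 52.4% over all promoters. A match is a stretch of letters only, and no binding was measured. The gene bodies lie at chr4:136143822-136145392 (Id3), chr12:25093799-25096092 (Id2) and chr2:152736251-152737410 (Id1) in the same annotation.

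Levels are log2 values of the normalized probe brightness, so that a step of 1 is a 2-fold difference. A probe counted as detected on an array where its detection p-value was below 0.01. The tests across 12845 transcripts used limma, which fitted a mean to each of the 7 groups, and adjusted p-values are Benjamini-Hochberg values over all those transcripts, called below 0.05. The residual spread came from the 3 groups with 2 arrays. The 4 groups with 1 array were assumed to vary like them, and p-values measure the spread between arrays, which may be technical. Between 10537 and 12305 probes were detected per array. By raw median signal the arrays fell into a brighter set of 135.73 to 166.48, which held the intestinal and adipose arrays and peritoneal replicate 2, and a dimmer set of 89.83 to 107.88, which held the rest. What separates the sets is not given in the labels, and peritoneal macrophages are the one group present in both. Most known markers followed the tissue labels, and Siglecf of alveolar macrophages and Cd5l of Kupffer cells were detected on no array. Gata6 was detected only in peritoneal macrophages (11.61 and 12.11) and Clec4f only in Kupffer cells (14.81). Spic was highest in splenic macrophages (12.09), Car4 in alveolar macrophages (11.34), Cx3cr1 in intestinal macrophages (13.59 and 13.47) and Lyve1 in adipose macrophages (12.68 and 12.64).

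All 3 Id genes differed among the groups, and each in its own order. Id3 was highest in Kupffer cells, Id1 in Kupffer cells and BMDM, and Id2 in splenic macrophages. Each passed the F test over the 7 groups, with an adjusted p of 0.000624 for Id1, 2.92e-05 for Id2 and 1.63e-05 for Id3. That test was also passed by 79.6% of all transcripts, so passing it does not set the Id genes apart. The difference between a gene's highest and lowest group mean was 5.03 for Id1, 4.53 for Id2 and 5.71 for Id3 on the log2 scale, against a median of 1.66 over all transcripts. These spans were larger than in 94.5%, 92.4% and 96.4% of the transcripts tested.

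**Figure D1:**
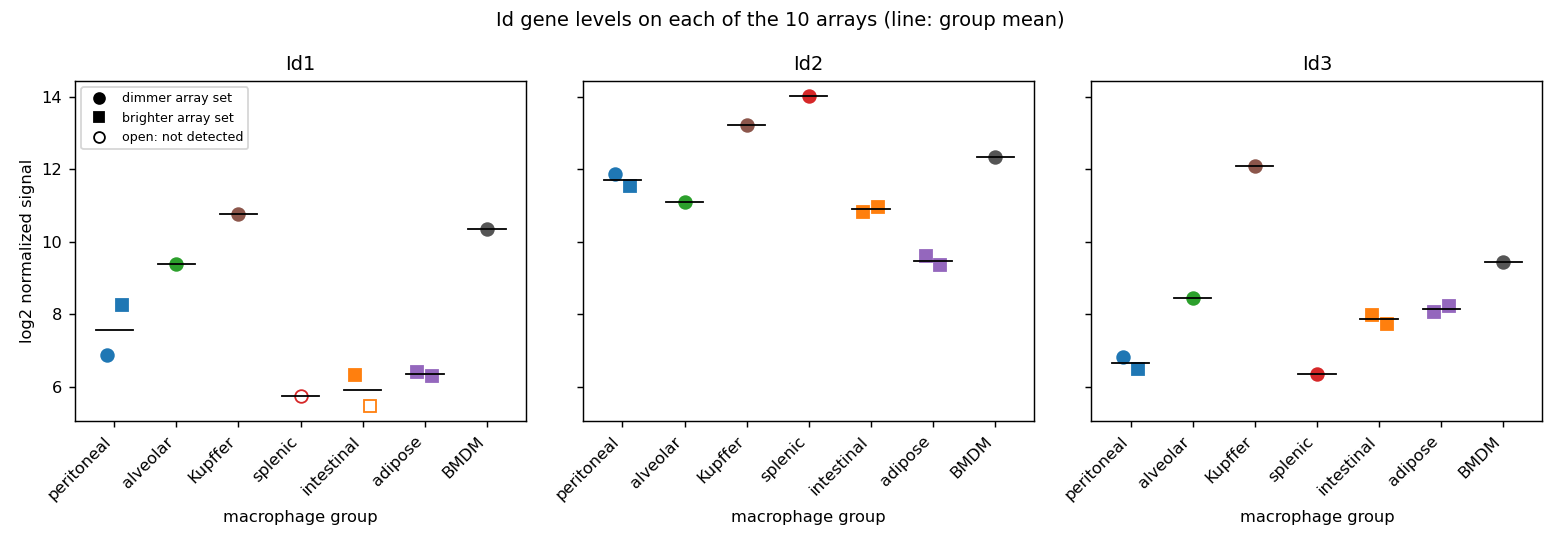
Log2 normalized signal of Id1, Id2 and Id3 (one panel each) on every array, with the tissue groups left of BMDM. Circles are arrays of the dimmer set, squares arrays of the brighter set, open symbols arrays where the probe was not detected, and lines group means; Id3 stands at 12.07 in Kupffer cells, Id1 at 10.77 in Kupffer cells and 10.34 in BMDM, and Id2 at 14.00 in splenic macrophages.

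Id3 inhibits E proteins in lymphocytes and in tissue macrophages. Its probe was detected on all 10 arrays. It stood at 6.83 and 6.49 on the peritoneal arrays, 8.46 on the alveolar array, 12.07 on the Kupffer array and 6.36 on the splenic array. It stood at 7.99 and 7.74 on the intestinal arrays, 8.06 and 8.23 on the adipose arrays and 9.43 on the BMDM array. Kupffer cells lay above every other array, BMDM were next, and the alveolar, intestinal and adipose arrays lay close together above the peritoneal and splenic ones.

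In Kupffer cells Id3 was 2.64 ± 0.26 (SE of the fit) above BMDM, which is 6.25-fold, with an adjusted limma p of 0.000308. Against the mean of the other 6 groups the Kupffer level was 4.25 higher, or 19.1-fold, with an adjusted p of 1.7e-05. Of the 3 Id genes, Id3 alone was at least 2-fold above each other group in any group, with every pair past the threshold. This held in Kupffer cells, where 1.49% of all transcripts met the same criterion. Since the Kupffer and BMDM arrays both belong to the dimmer set, their difference was the same when the set entered as a block.

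The next steps in the order of Id3 levels were smaller. Alveolar macrophages lay 0.97 below BMDM, with an adjusted p of 0.0257. That call was lost when any 1 intestinal or adipose array was left out, with adjusted p-values of 0.0502 to 0.0565. The alveolar level was 0.31 above the adipose one (95% interval -0.22 to 0.85, adjusted p 0.303), and this sign turned with median scaling (-1.09) and with the array set as a block (-0.024). Adipose and intestinal levels differed by 0.28 (interval -0.16 to 0.72, adjusted p 0.313). Intestinal macrophages lay 1.21 above peritoneal macrophages, with an adjusted p of 0.00166. Peritoneal and splenic levels differed by 0.29 (interval -0.24 to 0.83, adjusted p 0.351). In all, 17 of the 21 pairs of groups were called for Id3, against a median of 8 over all transcripts.

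Id1 is a classic early target of BMP signalling. Its main probe was detected on 8 of 10 arrays. It stood at 6.88 and 8.24 on the peritoneal arrays, 9.38 on the alveolar array, 10.77 on the Kupffer array and 5.74 on the splenic array, where it was not detected. It stood at 6.33 and 5.48 on the intestinal arrays, at 6.40 and 6.31 on the adipose arrays, and at 10.34 on the BMDM array. The second intestinal array did not detect it. Kupffer cells, BMDM and alveolar macrophages formed the upper end, and the splenic, intestinal and adipose arrays the lower end, with no overlap between those ends.

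The peritoneal replicates of Id1 differed by 1.36, more than in 98.3% of all transcripts, and the intestinal replicates by 0.85, more than in 99.7%. The adipose replicates differed by 0.09. The residual SD of Id1 was therefore 0.656, against 0.181 for Id2 and 0.183 for Id3, and differences of Id1 carried wide intervals.

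Kupffer cells and BMDM differed in Id1 by 0.44 (95% interval -1.07 to 1.94, adjusted p 0.63), and BMDM and alveolar macrophages by 0.95 (interval -0.56 to 2.46, adjusted p 0.294). The order of these 3 groups is thus within the error. Alveolar macrophages lay 1.82 above peritoneal ones, with an adjusted p of 0.0406, a call that was lost under 6 of 16 alternatives (adjusted p 0.00106 to 0.321 over all 16). Leaving out 1 peritoneal array at a time moved this difference between 1.14 and 2.51. Splenic Id1 gave only a bound, with the Kupffer level at least 23.2-fold above it (adjusted p 0.0019). The Kupffer level was 29.3-fold above the intestinal mean, where 1 of 2 arrays detected it and the other entered at its undetected value (adjusted p 0.00067), and 21.4-fold above the adipose mean (adjusted p 0.0011). Peritoneal, adipose and intestinal levels came next in the order, and neither step passed the threshold. These steps were 1.21 (adjusted p 0.0785) and 0.46 (adjusted p 0.497). In all, 14 of 21 pairs were called.

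A second Id1 probe was detected only on the Kupffer array, where its level was 7.26. Its Kupffer minus BMDM difference was 1.16, with an adjusted p of 0.0498 over 16298 separate probes, of which 79.3% passed the F test. BMDM entered at an undetected value (6.10), so the size is not exact, and the main probe gave no call for this pair. On the second probe every pair with Kupffer cells was called and no other pair was, with splenic minus BMDM at -1.04 (adjusted p 0.0654). The probe was tested through the Kupffer array alone. Over the 10 arrays the main and second probe had a correlation of 0.859, as a description.

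Id2 restrains E proteins in dendritic and innate lymphoid lineages. Both of its probes were detected on all 10 arrays. The main probe stood at 11.87 and 11.52 on the peritoneal arrays, 11.08 on the alveolar array, 13.22 on the Kupffer array and 14.00 on the splenic array. It stood at 10.83 and 10.95 on the intestinal arrays, 9.59 and 9.35 on the adipose arrays and 12.32 on the BMDM array. Splenic macrophages were highest and adipose macrophages lowest, and no adipose array overlapped with an array of another group.

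Splenic Id2 was 1.68 above BMDM, or 3.20-fold, with an adjusted p of 0.0019, and 2.55 above the mean of the other 6 groups, with an adjusted p of 0.00011. The splenic level exceeded the Kupffer level by 0.78 (95% interval 0.16 to 1.40), but with an adjusted p of 0.0792 this missed the threshold. The adjusted p of this difference ranged over 16 alternatives between 0.0168 and 0.337, and it passed in 6 of them. Kupffer Id2 was 0.90 above BMDM, with an adjusted p of 0.029, a call lost under 6 of 16 alternatives. Adipose Id2 was 2.85 below BMDM, which is 7.21-fold, with an adjusted p of 0.00011, and 1.41 below the intestinal level, with an adjusted p of 0.00125. Peritoneal Id2 was 0.62 above the alveolar level with an adjusted p of 0.0759, and this difference passed in 7 of 16 alternatives (adjusted p 0.0132 to 0.136 over all 16), among them the array set as a block (0.79). Alveolar Id2 was 0.19 above the intestinal level, with an adjusted p of 0.52. This smaller step turned with median scaling (-0.90) and with the array set as a block (-0.16). In all, 17 of 21 pairs were called.

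The 2 Id2 probes agreed on the ends of the order and disagreed near its top. The second probe stood at 9.96 and 9.54 on the peritoneal arrays, 8.86 on the alveolar array, 9.94 on the Kupffer array and 10.69 on the splenic array. It stood at 8.22 and 8.01 on the intestinal arrays, 6.08 and 6.69 on the adipose arrays, and 10.16 on the BMDM array. Splenic macrophages were highest and adipose macrophages lowest on both probes. On the second probe Kupffer minus BMDM was -0.23 (adjusted p 0.655) and splenic minus BMDM was 0.52 (adjusted p 0.277). The called excess of Kupffer cells and splenic macrophages over BMDM thus rests on the main probe. The same holds for Kupffer cells over peritoneal macrophages, which was 0.19 on the second probe (adjusted p 0.698), and over alveolar macrophages, which was 1.08 (adjusted p 0.0622). It also holds for splenic over peritoneal macrophages, where peritoneal minus splenic was -0.94 on the second probe (adjusted p 0.0503). Across the 10 arrays the probes had a correlation of 0.925, as a description.

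The fourth member of the mouse family, Id4, had 2 probes, and neither was detected on any array, with lowest detection p-values of 0.0468 and 0.276.

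Of the 18 differences between a tissue group and BMDM over the 3 Id genes, 12 were called lower, 3 were called higher and 3 were not called. In Kupffer cells Id2 and Id3 were higher and Id1 was not called, where 42.8% of all transcripts differed in either direction. In splenic macrophages Id2 was higher, while Id1 was at least 17.1-fold lower (adjusted p 0.0011) and Id3 lower by 3.07, or 8.39-fold (adjusted p 0.00014). There, 47.8% of transcripts differed. In intestinal macrophages all 3 were lower, by 4.44 (Id1), 1.44 (Id2) and 1.56 (Id3), where 53.1% of transcripts differed. In adipose macrophages all 3 were lower too, by 3.98, 2.85 and 1.29 in the same order, where 46.3% differed. In peritoneal macrophages Id1 and Id3 were each lower by 2.77 (41.9% of transcripts differed), and Id2 had a difference of -0.63 with an adjusted p of 0.0625, which passed in 4 of 16 alternatives (adjusted p 0.0113 to 0.422 over all 16). In alveolar macrophages Id2 was lower by 1.24 and Id3 by 0.97, with 36.3% of transcripts called, and Id1 had a difference of -0.95 with an adjusted p of 0.294. These comparisons share 1 BMDM array, so an error of that array enters all of them. With median scaling the calls of Id1 in peritoneal macrophages (adjusted p 0.0544), of Id2 in Kupffer cells and intestinal macrophages (0.164 and 0.0678), and of Id3 in intestinal and adipose macrophages (0.0729 and 0.339) were lost.

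**Figure D2:**
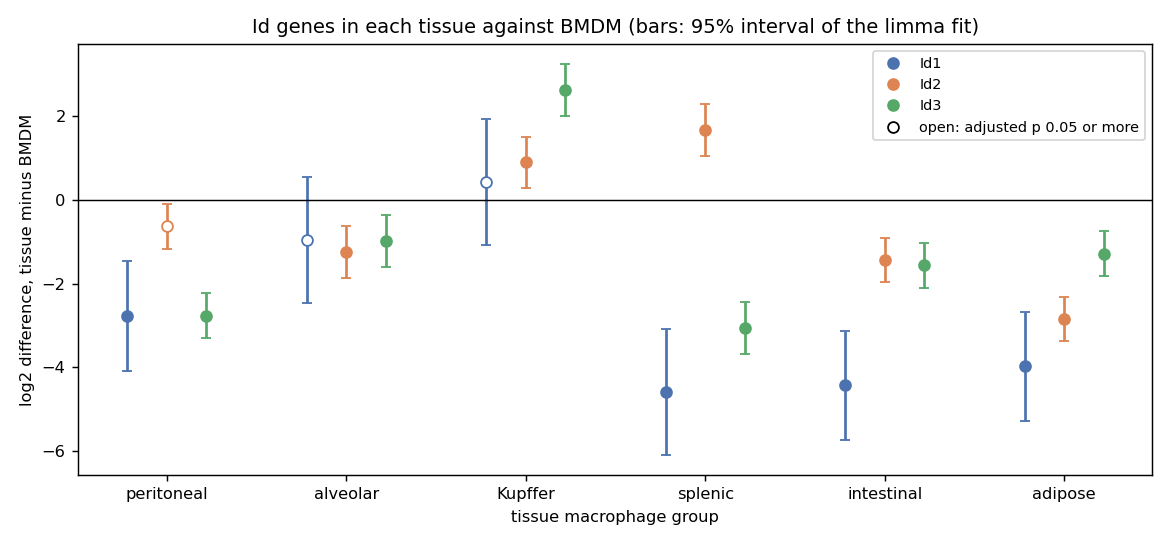
Difference of each tissue group from BMDM in log2 normalized signal for Id1, Id2 and Id3, with bars for the 95% interval of the limma fit, filled points past an adjusted p of 0.05, and Id1 undetected in splenic macrophages. Id3 in Kupffer cells (2.64) and Id2 in splenic macrophages (1.68) and Kupffer cells (0.90, lost under 6 of 16 alternatives) lie above 0 with intervals clear of it.

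Taken each against the mean of the other 6 groups, all 3 Id genes were higher in Kupffer cells, by 3.23 for Id1 (adjusted p 0.0030), 1.65 for Id2 (adjusted p 0.0011) and 4.25 for Id3. In that comparison 14.4% of transcripts were higher and 15.2% lower. All 3 were also higher in BMDM, by 2.72, 0.60 and 1.17, where 22.7% of transcripts were higher. For Id2 this call (adjusted p 0.0384) was lost under 7 of 16 alternatives, with adjusted p-values of up to 0.23. All 3 were lower in intestinal macrophages, by 2.46, 1.08 and 0.65, where 21.8% of transcripts were lower. With median scaling, the Id3 difference in intestinal macrophages turned to 0.023, and with the array set as a block it was -0.40 and no longer called. The Id2 difference there was -0.45 with median scaling and no longer called (adjusted p 0.08). Adipose macrophages had lower Id1 (by 1.93) and Id2 (by 2.73), where 20.3% of transcripts were lower. The Id1 call was lost with median scaling (-1.18, adjusted p 0.0734) and without either adipose array (adjusted p 0.0609 and 0.069). Splenic macrophages had higher Id2 and lower Id1 and Id3, with 19.3% of transcripts higher and 20.4% lower. Peritoneal macrophages had lower Id3, by 2.07, where 23.5% of transcripts were lower. The peritoneal difference of Id2 was -0.13 on the main probe and not called (adjusted p 0.496). On the second Id2 probe it was 0.73 and called (adjusted p 0.0249), so the probes disagreed there. In alveolar macrophages Id1 was higher by 1.61 and Id2 lower by 0.85, with 16.3% and 19.9% of transcripts called in those directions. The Id1 call was lost under 5 of 16 alternatives (0.83 to 2.17, adjusted p 0.00126 to 0.349 over all 16). On the second Id2 probe the alveolar difference was -0.32 (adjusted p 0.393).

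Between tissues, the Kupffer comparisons held the most Id calls. All 3 Id genes were higher, on the main probes, in Kupffer cells than in intestinal macrophages (33.5% of transcripts differed), adipose macrophages (34.2%) and peritoneal macrophages (32.1%). Kupffer cells exceeded splenic macrophages in Id1 and Id3 (20.9% differed) and alveolar macrophages in 2 of the 3 genes, Id2 and Id3 (30.4%). Alveolar macrophages had higher Id1 and Id3 and lower Id2 than splenic macrophages (35.8% differed). They had higher Id1 and Id2 than adipose macrophages (42.2%) and higher Id1 than intestinal macrophages (44.3%). Peritoneal macrophages had lower Id1 and Id3 than alveolar macrophages (34.6% differed), and in Id1 this call was the unsteady one given above. They had higher Id1 and Id2 and lower Id3 than intestinal macrophages (45.8%), and higher Id2 and lower Id3 than adipose macrophages (35%). Splenic macrophages had higher Id2 and lower Id3 than intestinal macrophages (39.2%) and adipose macrophages (38.4%). Against peritoneal macrophages the splenic level of Id2 was higher, on the main probe only, and that of Id1 lower (39.7%). Intestinal macrophages exceeded adipose macrophages in Id2 alone (30.2%).

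Over the 7 group means the correlation was 0.795 between Id1 and Id3, 0.255 between Id1 and Id2, and 0.143 between Id2 and Id3. Over the 10 arrays it was 0.709, 0.356 and 0.138 for the same pairs. These are descriptions over arrays that share their normalization.

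Comparisons among peritoneal, intestinal and adipose macrophages could be made within the brighter set alone, where intestinal and adipose macrophages have 2 arrays each and peritoneal macrophages 1. There, peritoneal Id1 was 2.34 above the intestinal level (adjusted p 0.00067) and 1.89 above the adipose level (adjusted p 0.0027). Over both sets the second of these differences was 1.21 and missed the threshold. Peritoneal Id2 was 0.63 above the intestinal level (adjusted p 0.0153) and 2.05 above the adipose level (adjusted p 7.42e-05). Peritoneal Id3 was below the intestinal level by 1.38 (adjusted p 0.000438) and below the adipose level by 1.66 (adjusted p 0.000247). Intestinal minus adipose was 1.41 for Id2 (adjusted p 0.000151), while it was -0.46 for Id1 (0.183) and -0.28 for Id3 (0.141). Called transcripts made up 52.1% for peritoneal minus intestinal, 42% for peritoneal minus adipose and 47% for intestinal minus adipose macrophages. Within the dimmer set each group has 1 array, and the Kupffer array exceeded the splenic one by 5.03 in Id1 and 5.71 in Id3, with no test.

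Markers of other cell types were read beside the Id genes, and in whole-population RNA, fewer cells of a type and less RNA per cell cannot be told apart. Of 17 endothelial markers on the array, 15 were detected somewhere, 12 of them were higher and 1 was lower in Kupffer cells than in the other groups, and 1 was detected in Kupffer cells only, where 14.4% of all transcripts were higher and 15.2% lower. In adipose macrophages 9 of the 15 were higher and 2 lower, where 22.2% of transcripts were higher. Their median Kupffer difference was 2.31, against -0.08 over all transcripts. The summed endothelial signal, on the linear scale above the normalization offset, was 23517.7 in Kupffer cells, 14791.5 in splenic macrophages, 3667.8 in alveolar macrophages, 2506.6 to 2638.2 in adipose macrophages, 2112.3 to 2116.1 in intestinal macrophages and 381.7 to 576.1 in peritoneal macrophages. In BMDM it was 482.9. The Kupffer sum came mainly from the sinusoidal markers Stab2 (12.73) and Clec4g (12.41) and the general endothelial marker Cdh5 (12.21). Tie1 and Sox17 were detected on no array. The splenic sum came mainly from Stab2 (13.44). Of the 15 markers, 4 were detected in splenic macrophages. There 3 were higher and 10 lower, where 19.3% of all transcripts were higher and 20.4% lower.

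Id1 and Id3 were read beside this endothelial sum. Kupffer cells, with the highest sum, had Id1 at 10.77 and Id3 at 12.07. Alveolar macrophages had Id1 at 9.38 and Id3 at 8.46, with 10 of the 15 endothelial markers detected. There 5 were higher and 3 lower, where 16.3% of all transcripts were higher and 19.9% lower. BMDM had Id1 at 10.34 and Id3 at 9.43 with 3 of the 15 endothelial markers detected. Splenic macrophages had Id1 undetected and Id3 at 6.36. Their sum was the second highest, but it was mainly Stab2, and 10 of the 15 markers were lower there. Of 12 hepatocyte markers on the array, 9 were detected, 5 of these in Kupffer cells only, and all 9 were higher in Kupffer cells (4 where detection on at least 2 arrays was required). Their sum was 12685.6 in Kupffer cells, 6316.5 to 7716.6 in peritoneal macrophages, 1789.1 to 2127.7 in adipose macrophages and between 192.4 and 532.7 in the other groups. The peritoneal sum came mainly from Hp (12.57 and 12.87), with 2 of the 9 detected there, 1 higher and 6 lower. The adipose sum came mainly from Cyp2e1 (10.58 and 10.32). Apoa2 (11.62) and Serpina1b (11.48) led in Kupffer cells, and Alb, Fgb and Tat were detected on no array. The part of endothelial cells, hepatocytes and stellate cells in the Kupffer levels of Id1, Id2 and Id3 was not tested.

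**Figure D3:**
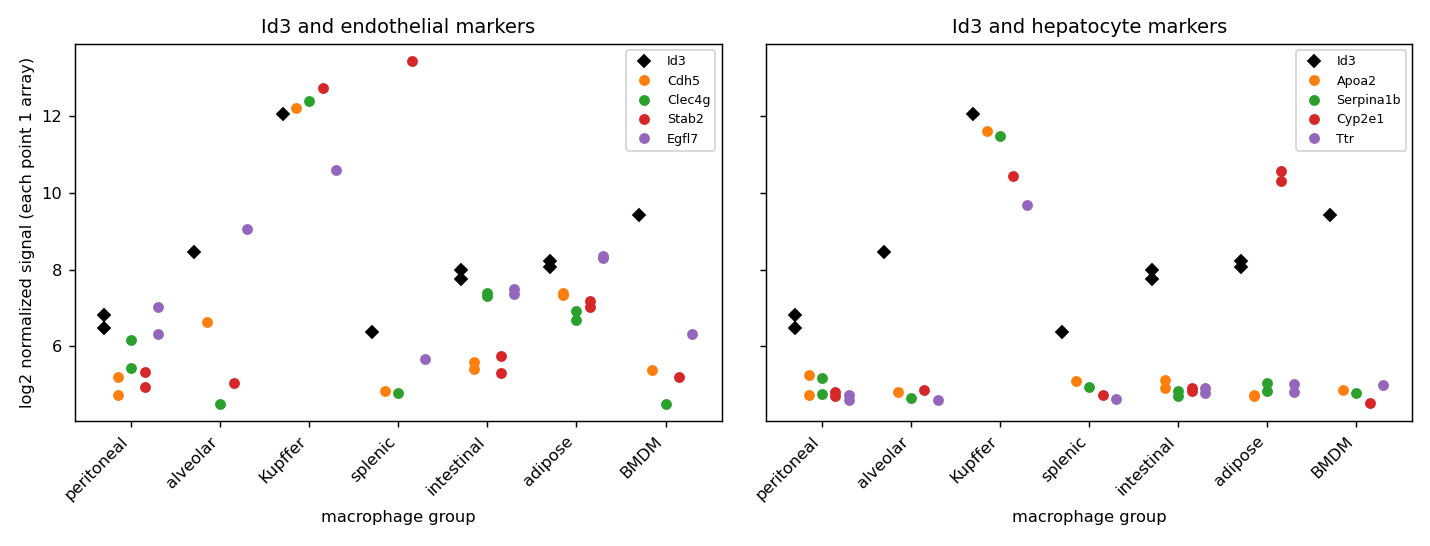
Log2 normalized signal on each array (1 point each, detected or not) of Id3 beside 4 endothelial markers (left) and 4 hepatocyte markers (right), by macrophage group, to be compared across groups and not between genes. Kupffer cells are high in Id3 (12.07) and in most of these markers, and BMDM have Id3 at 9.43 with these markers low. Splenic macrophages have Stab2 at 13.44 with Id3 at 6.36, and the other endothelial markers shown were undetected there.

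For Id2, the spleen had the highest summed signal of B cell markers, 5863.9 against 237.9 to 2214.6 in the other groups. That sum was mostly Cd79b, which stood at 12.38 in splenic macrophages, 10.88 and 10.91 in intestinal macrophages and 10.46 in Kupffer cells, while Ms4a1 and Pax5 were detected on no array. Of 5 B cell markers detected, 3 were higher and 1 lower in splenic macrophages, and 1 was detected there only. In splenic macrophages 19.3% of all transcripts were higher and 20.4% lower. Of 7 T, NK and innate lymphoid markers detected, 4 were higher and 1 lower there, but their sum of 611.1 did not stand out. It was 660.8 to 722.0 in intestinal macrophages and 2825.8 in BMDM, there from Il7r (11.42). Of 6 neutrophil markers detected, 5 were higher and none lower in splenic macrophages, with a sum of 1304.0 against 261.7 to 814.1 elsewhere. Of these 6, 2 were detected in splenic macrophages only. All 6 conventional dendritic cell markers detected were higher in intestinal macrophages, where 24.7% of transcripts were higher, with a sum of 9022.5 to 9128.0 against 237.4 to 3200.2 elsewhere. In splenic macrophages 2 of those 6 were higher and 3 lower. Of 5 fibroblast and stellate markers detected, 4 were higher in intestinal and 3 in adipose macrophages, with sums of 1152.5 to 1264.7 and of 3008.8 to 3592.1. In each of these groups 1 was detected there only, and 24.7% and 22.2% of all transcripts were higher. In adipose macrophages 1 was lower. In Kupffer cells 2 of the 5 were detected, Dcn (8.21) and Thy1 (7.03). There 2 were higher and none lower, with a sum of 435.5, where 14.4% of transcripts were higher. In alveolar and in splenic macrophages 1 each was higher, where 16.3% and 19.3% of transcripts were. Of 3 plasmacytoid dendritic cell markers detected, 1 was higher in each of Kupffer cells, splenic, intestinal and adipose macrophages and BMDM. In these groups 14.4%, 19.3%, 24.7%, 22.2% and 22.7% of all transcripts were higher. In Kupffer cells and in alveolar macrophages 1 of the 3 was lower, where 15.2% and 19.9% of transcripts were. In adipose and in peritoneal macrophages 2 were lower, where 20.3% and 23.5% of transcripts were. Innate lymphoid and dendritic cells express Id2 in mice, and the part of these cell types in the Id2 levels was not tested.

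The E proteins, the direct partners of Id proteins, were detected in all 7 groups. All 3 passed the F test, against 79.6% of all transcripts, though 1 did when the detected probes of a gene were averaged. None was called in Kupffer cells against the other groups. Tcf4 varied most, by 2.99 between its highest and lowest group. It was highest on the adipose arrays (12.57 and 12.64) and lowest on the alveolar array (9.62), and stood at 11.17 on the splenic array. Tcf12 was highest in BMDM (7.76) and lowest in intestinal macrophages (6.11 and 6.03). Tcf3 was highest in splenic macrophages (9.03) and lowest in BMDM (8.00), and its adjusted F-test p was 0.022.

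Of 16 tissue-specific partners of E proteins on the array, 3 were detected and 2 passed the F test. Tal1, which pairs with E proteins in blood cell development, stood at 9.60 in BMDM and 6.66 in Kupffer cells, and was not detected in alveolar macrophages. Lyl1, its close relative, stood at 12.20 and 12.08 in adipose macrophages and 7.83 in alveolar macrophages.

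Of 9 Hes, Hey and Bhlhe repressors, a helix-loop-helix class that binds DNA itself, 4 were detected and all 4 passed the F test. Hey1 was detected only in Kupffer cells (8.30) and splenic macrophages (6.31), and its Kupffer level was 3.12 above the mean of the other groups (adjusted p 3.2e-05). Hes1, a target of Notch signalling, stood at 12.16 and 12.10 in intestinal macrophages, 11.40 in splenic macrophages, 10.54 in Kupffer cells and 8.21 in BMDM, and was lowest in adipose macrophages (7.04 and 7.44). Bhlhe40, a repressor that holds E-box-like sites, had the widest span of the list and stood at 6.08 and 6.00 in adipose macrophages, against 9.30 in BMDM.

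The BMP pathway was read from its ligands to its Smads and inhibitors, a list of 50 genes of which 46 were on the array and 18 were detected. All 18 passed the F test, against 79.6% of all transcripts. In Kupffer cells against the other groups 5 of the 18 were higher and 2 lower, where 14.4% of transcripts were higher and 15.2% lower. In splenic macrophages 2 were higher and 5 lower, where 19.3% and 20.4% were. In BMDM, the other group with high Id1, 2 were higher and 8 lower, where 22.7% and 29.6% were.

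Of 15 ligands, 3 were detected and none was called in Kupffer cells. Gdf3, a ligand of the family, was detected in Kupffer cells (6.64) and BMDM (7.41). Bmp4 was detected on 1 intestinal array (5.89) and Bmp1, a protease that frees BMPs from their inhibitors, on 1 peritoneal array (6.44). Bmp2, Bmp6, Gdf2 and Bmp10 were on the array and detected nowhere.

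Of 11 receptors, 5 were detected, 2 of them higher in Kupffer cells and none lower. Bmpr1a, a type I receptor of BMPs, stood at 7.02 in Kupffer cells and was otherwise detected only on 1 peritoneal array (6.36). Acvrl1, a type I receptor known from endothelium, stood at 8.32 in Kupffer cells, 8.50 in splenic macrophages, 8.64 and 8.54 in intestinal macrophages and 6.80 in BMDM, and was undetected in peritoneal macrophages. In adipose macrophages Acvrl1 stood at 7.73 and 7.77, and in alveolar macrophages at 7.52. The endothelial sum given above was 23517.7 in Kupffer cells, 14791.5 in splenic macrophages and 2112.3 to 2116.1 in intestinal macrophages. The part of endothelial cells in Acvrl1 was not tested. Acvr2b, a type II receptor, stood at 10.75 in splenic macrophages, 9.91 in Kupffer cells and 6.54 in BMDM. Eng, a co-receptor, was highest in adipose macrophages (9.65 and 9.58) and lowest in alveolar macrophages (6.34).

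Both Smads on the array passed the F test. Smad1, which carries the BMP signal to the nucleus, stood at 9.62 in Kupffer cells, against 8.35 in BMDM, and its Kupffer level was 0.76 above the mean of the other groups (adjusted p 0.0253). Smad4, the shared partner, was highest in peritoneal macrophages (11.82 and 11.33) and was not called in Kupffer cells.

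Of 18 inhibitors, 8 were detected, and in Kupffer cells 2 were higher and 2 lower. Skil, a co-repressor of Smads, stood at 7.99 in Kupffer cells, 1.78 above the mean of the other groups (adjusted p 0.0056). Smurf2, which marks Smads and receptors for breakdown, stood at 7.49 there and was 0.78 above that mean (adjusted p 0.0408). Ski was lower by 0.66. Fstl1 was also lower in the fit, but was not detected in Kupffer cells. Tob1 stood at 9.43 in alveolar macrophages, 3.30 above the mean of the other groups. Twsg1, a secreted BMP-binding protein, stood at 9.07 in BMDM and 7.70 in splenic macrophages. Grem1, a secreted BMP antagonist, was detected only in intestinal macrophages (6.71 and 6.22).

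Of 10 other BMP targets on the array, 4 were detected, and 2 of them were higher in Kupffer cells. These were Hey1 and Hamp, the iron hormone hepcidin, which was detected only in Kupffer cells (7.64). Hepatocytes make hepcidin, and the hepatocyte markers given above were highest in the same array. Gata2 was detected only in alveolar macrophages (7.18).

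**Figure D4:**
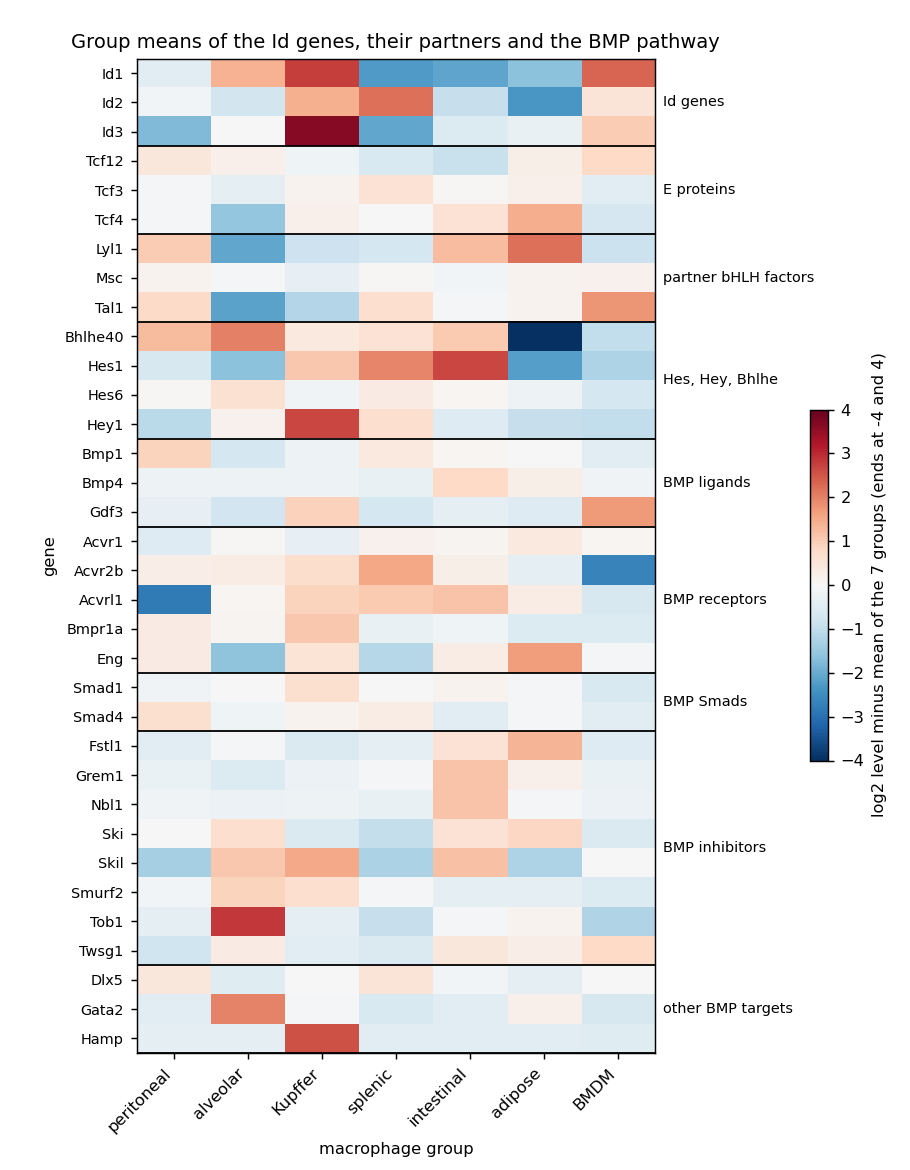
Group means (log2, colour) of the Id genes and of the detected E proteins, their partners and BMP pathway genes, each minus the gene's mean over the 7 groups, with groups in columns and BMDM last; values of undetected probes are included. In the Kupffer column Id1, Id3, Hey1 and Hamp are the deepest red, while most ligands, Smads and inhibitors are pale.

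The named genes most like each Id gene were found by the correlation over the 7 group means, among 7181 genes whose means spanned at least 2-fold. These points share arrays and normalization, and with 7 points many genes reach high values. Id3 was most like Apol9a (0.949), Gsta3 (0.941), Ehhadh (0.932), Arhgef15 (0.932) and C9 (0.918). Gsta3, a glutathione transferase, was detected on 7 arrays and stood at 10.26 in Kupffer cells and 9.55 in BMDM. Ehhadh, an enzyme of peroxisomal fatty acid oxidation, was detected on 3 arrays. Apol9a was detected on 1 intestinal array only (5.91) and not in Kupffer cells, so its likeness rests mostly on undetected values. Arhgef15 and C9, a complement component, were detected on the Kupffer array alone. The most opposite to Id3 were C2cd5 (-0.975), Tm7sf3 (-0.974) and Bcdin3d (-0.932).

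Id1 was most like Coq7 (0.954), Ssb (0.952), Ifi205 (0.947), Atp6v1a (0.945) and Coq2 (0.932, detected on 5 arrays). Coq7 and Coq2 are enzymes of ubiquinone synthesis, and Atp6v1a is a subunit of the vacuolar proton pump. Ifi205 was detected on 3 arrays and stood at 9.04 in alveolar macrophages, 9.06 in Kupffer cells and 9.03 in BMDM. The most opposite were Pcnt (-0.987), Pan2 (-0.981) and Bptf (-0.971).

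Id2 was most like Cemip2 (0.958), Kif21b (0.946, detected on 1 array), Cd180 (0.932), Ripk3 (0.929) and Map3k3 (0.925). Cd180 is a receptor related to Toll-like receptors, and Ripk3 a kinase of necroptosis. The most opposite were Atp5mpl (-0.962), Inpp5f (-0.955) and Resf1 (-0.953).

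**Figure D5:**
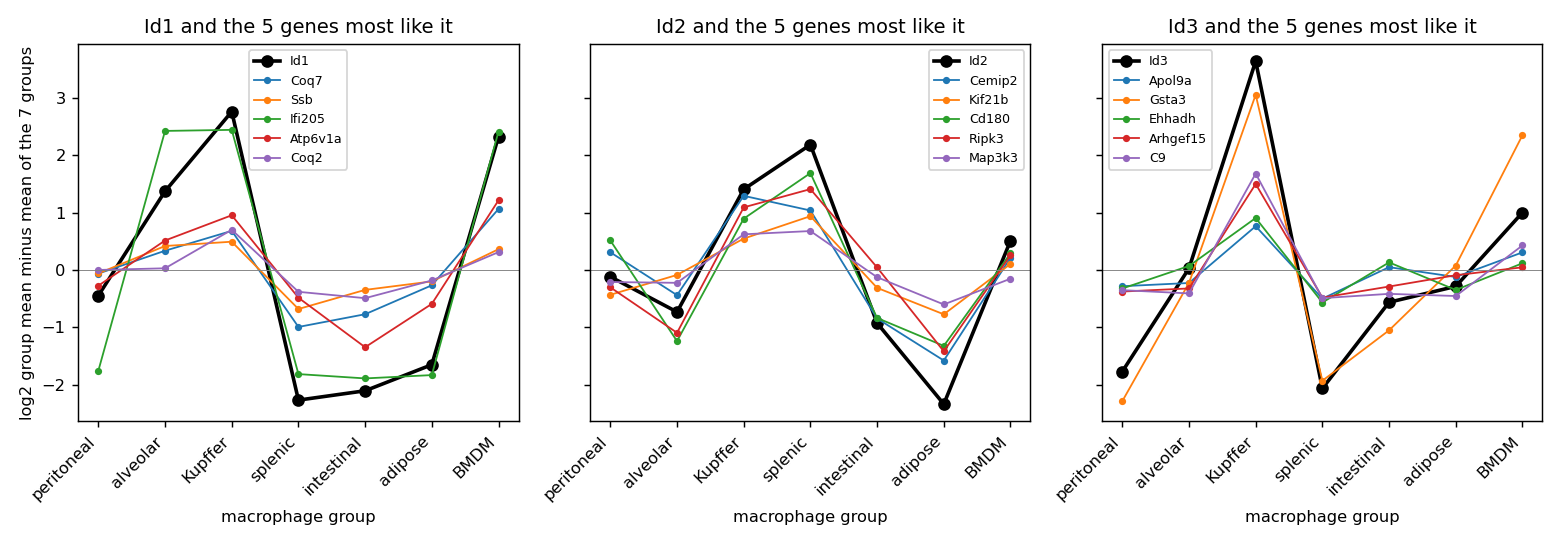
Group means (log2) of Id1, Id2 and Id3 (black) and of the 5 named genes most like each (coloured), each minus its mean over the 7 groups. The closest are Coq7 for Id1 (0.954), Cemip2 for Id2 (0.958) and Apol9a for Id3 (0.949), which was detected on 1 intestinal array only. Most of these genes vary over a narrower range than the Id gene.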

How the data were processed

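RNA of 10 macrophage samples in 7 groups was read on Illumina mouse bead arrays. Per the file headers, each deposited table lists an intensity and a detection p-value of 46632 probes. The software and settings behind them are not given in the sources used here. The authors' deposited series values, a normalized intensity on a linear scale, served as an alternative. Background correction, quantile normalization and the log2 step were done by neqc (offset 16) in limma 3.58.1 under R 4.3.3, with the background taken from the detection p-values. One probe per gene was kept, that of highest mean, if its detection p was below 0.01 on at least 1 array. This left 12845 transcripts, 9171 with a symbol and 3674 unnamed probes. Groups came from the sample titles. A model of 7 group means (3 residual degrees of freedom) was fitted with lmFit and eBayes, and tested on simulated data. Against a probe not detected in a group, a fold is a bound from the lowest signal of detected probes on that array. The number of arrays limits the precision. The Id genes, the gene lists and the tests were chosen with earlier results of these data known. The rule for named genes took every Id gene, the 5 most alike and 3 most opposite to each, the E proteins, population markers, from each other helix-loop-helix and BMP list up to 6 members past the F test with the widest span, and up to 4 leading markers of other cells. Smurf2 and the undetected genes were named after their values were seen. Alternatives covered the background correction, scaling, probe choice, detection filter, variance trend, array set, replicate block and leaving out each replicated array. Per-sample columns left out numbered 0. Promoter sequences are RefSeq's on GRCm38.p6.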

Additional observations from a re-analysis of the deposited data

How the results depend on the processing

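Of 51 differences of the Id genes followed over 18 alternatives, 35 were called, and 23 of these were called in every alternative that could give them. The excess of Id3 in Kupffer cells over BMDM kept its direction and its call throughout (2.50 to 2.67), and the F tests of the 3 Id genes stayed past the threshold. The excess of Id2 in splenic macrophages over Kupffer cells, not called at first, passed with the authors' series values (0.76, adjusted p 0.0329), without background correction (0.77, adjusted p 0.0298), with a variance trend (0.78, adjusted p 0.039), with the array set as a block (0.78, adjusted p 0.0168) and without either peritoneal array (0.77 to 0.78 over all left-out arrays). The small alveolar difference of Id3 from the other groups turned with the authors' series values (-0.21), without background correction (-0.19), with median scaling (-0.79) and with the array set as a block (-0.11). Median scaling moved the median difference of all transcripts to 0.72 in adipose and -0.55 in alveolar macrophages. It turned Id3 in intestinal macrophages against the others to 0.023 and in adipose macrophages to 0.49, Id3 in alveolar minus adipose macrophages to -1.09, and Id2 in alveolar minus intestinal macrophages to -0.90. Median scaling also lowered the transcripts called against the other groups to 3144 in peritoneal macrophages, 1536 in Kupffer cells, 2339 in splenic macrophages and 3647 in BMDM, against 5699, 3795, 5093 and 6721. Against BMDM it left 2793 for peritoneal, 2033 for alveolar, 2460 for Kupffer and 3151 for splenic macrophages, against 5383, 4668, 5501 and 6136. With the array set as a block Id1 in intestinal minus splenic macrophages turned to -1.20, Id2 in alveolar minus intestinal to -0.16, and Id3 in alveolar minus adipose to -0.024. Averaging the probes of a gene turned Id2 in peritoneal macrophages against the others to 0.30 and left 1 of the 3 E proteins past the F test. Requiring detection on at least 2 arrays left 4 of the 9 hepatocyte markers, since 5 were detected on the Kupffer array alone. The 3 groups with 2 arrays alone gave 6540 transcripts past the F test, against 10219. Leaving out 1 array at a time gave 3532 to 7114 transcripts called in alveolar macrophages against the others, 2617 to 6320 in Kupffer cells, 2945 to 8258 in intestinal macrophages and 2426 to 7844 in adipose macrophages. It gave differences from the others of -1.20 to 0.17 for Id1 in peritoneal macrophages and -0.31 to 0.037 for Id2 there, and -0.26 to 0.58 for Id1 in intestinal minus splenic macrophages. The cause of these moves was not tested. A lone array was then assumed to vary like the other groups. The fit within the brighter set alone was chosen after seeing the data.

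The labels number the 2 arrays of 3 groups, and deviations of arrays with the same number correlated at 0.05 (peritoneal and intestinal), -0.14 (peritoneal and adipose) and -0.09 (intestinal and adipose). No shared deviation by number was seen, but these values cannot tell whether the numbers pair the arrays. The 2 peritoneal arrays also lie in different array sets. With the replicate number as a block, 9556 transcripts passed the F test, the splenic minus Kupffer difference of Id2 stayed at 0.78 (adjusted p 0.102), the Kupffer minus BMDM difference stayed at 2.64 for Id3 and 0.44 for Id1, the alveolar minus peritoneal difference of Id1 was 1.89 (adjusted p 0.0501) and the BMDM excess of Id2 over the others was 0.56 (adjusted p 0.0656).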

Other observations

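Regulators known from Kupffer cells and red pulp macrophages were read beside the Id genes. Of 7 detected, 6 passed the F test. Nr1h3 (LXR alpha) was at 13.82 in the spleen and 13.91 in the liver, against 9.27 in BMDM. The part of these regulators in the Id levels was not tested. Spic, the red pulp regulator, stood at 12.09 in splenic macrophages, 8.68 in Kupffer cells and 6.42 and 6.26 in adipose macrophages, and was detected nowhere else. Irf8, a regulator of myeloid lineages, was highest in splenic macrophages (11.65). Zeb2 was highest in adipose macrophages (12.30 and 12.23), and Nfe2l2, the oxidative stress regulator, in BMDM (8.10). Maf, which restrains macrophage proliferation, was detected everywhere but in alveolar macrophages, and was highest in adipose (12.30 and 11.96) and Kupffer (11.86) cells.

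Immediate early genes, which cells switch on within minutes of handling or growth signals and among which Id genes are sometimes counted, split the groups in another way. All 13 detected were higher in intestinal macrophages than in the other groups, and 12 of them were higher in adipose macrophages, where 24.7% and 22.2% of all transcripts were higher. In Kupffer cells 5 were higher and 2 lower (14.4% and 15.2% of transcripts), and in BMDM none was higher and 11 were lower (29.6% of transcripts were lower). Fos stood at 14.11 and 14.12 in intestinal macrophages, 14.06 and 14.12 in adipose macrophages, 13.23 in Kupffer cells and 8.39 and 8.45 in peritoneal macrophages, against 10.54 in BMDM. In alveolar macrophages 6 were higher and none lower (16.3% of transcripts were higher). In peritoneal macrophages none was higher and 12 were lower (23.5% were lower). In splenic macrophages 6 were higher and 4 lower (19.3% and 20.4%), with Fos at 14.12. The intestinal and adipose groups were high in these genes and low in Id1, while alveolar macrophages had Id1 at 9.38. The part of handling in the Id levels was not tested.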
